A study of Mus musculus with 10 samples.

Results

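A set of 8 genes that act on the receptor proteins and the receptor genes of olfactory sensory neurons (OSNs) was followed across 3 genotypes of mice. The genes were taken by name from a set chosen with earlier results of these data known, and all 8 were found among the 24421 rows of the deposited table of raw counts. Rtp1, Rtp2 and Reep1 encode proteins that help receptors reach the cell surface. Eif2ak3, Atf5 and Ddit3 belong to the unfolded protein response, and Kdm1a and Lbr act on the chromatin in which receptor genes are kept.

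Each OSN expresses 1 receptor gene out of a large family. In the current picture of this choice, the gene is freed from heterochromatin with the help of the histone demethylase LSD1, encoded by Kdm1a. The first receptor protein made loads the endoplasmic reticulum (ER), where the kinase PERK, encoded by Eif2ak3, senses it and phosphorylates the initiation factor eIF2α. That step lets ribosomes read the main coding frame of Atf5 mRNA, and the factor ATF5 then drives maturation, with which the expression of LSD1 ends. RTP1 and RTP2 carry odorant receptors (ORs) to the membrane, which relieves the load on the ER. The lamin B receptor, encoded by Lbr, holds heterochromatin at the nuclear envelope in most cells and is low in mature OSNs, in which the silent receptor genes gather inside the nucleus.

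RNA was prepared from the whole main olfactory epithelium (MOE) of mice labelled C57BL/6 at postnatal day 14. The study injected zygotes of C57BL/6J mice and describes its mouse lines as a whole as having mixed C57BL/6J and 129 backgrounds. Wild-type (WT, 3 libraries) mice had both TAAR enhancers on both chromosomes, heterozygous (het, 3 libraries) mice lacked TAAR enhancers 1 and 2 on 1 chromosome, and homozygous (homo, 4 libraries) mice lacked them on both. The enhancers were removed by CRISPR-Cas9 and act on the Taar genes, which encode trace amine-associated receptors (TAARs). All mutant mice came from 1 established line, so that the deletions and any other change fixed in that line cannot be told apart. The comparison addresses whether the receptor transport and feedback genes differ when the Taar genes cannot be expressed.

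Total counts per library ranged from 21423861 to 27712948. The olfactory Taar genes (14 in the table) together had 850 to 915 counts in WT, 738 to 862 in het and 2 to 5 in homo libraries, as the labels say. Taar genes held 0.771% to 0.877% of all receptor counts in WT libraries (Taar and Olfr genes together), so that OSNs with a TAAR are a small part of the OSNs in this tissue. Whole-tissue RNA averages over all cells, and fewer cells of a type cannot be told apart from less RNA per cell. The OSN markers were high in every library, with a summed level of 7943 to 9404 normalized CPM (counts scaled to a common library size with TMM factors) for the 8 mature OSN genes and of 1500 to 2000 for the 6 immature OSN genes, and the ranges of the 3 genotypes overlapped for both. Markers of sustentacular and gland cells summed to 6405 to 6771 normalized CPM in WT, 6872 to 7537 in het and 6607 to 7471 in homo libraries, so that WT and het did not overlap, and the part of this difference in the results was not tested. Both sexes were used, and counts of Y-linked genes were present in 4 libraries (homo-2, homo-3, het-1 and WT-1), with 0 of 8 members called when this was a term of the fit. In each genotype the library with replicate number 2 had the highest level of long relative to short transcripts, which is described with the results it touches.

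Atf5, Ddit3 and Eif2ak3 are printed here with the DNA before their start sites, because they belong to 1 pathway. Over the 10 libraries, with genotype means removed, Atf5 had r = 0.818 with Ddit3 and -0.059 with Eif2ak3. Atf5 and Ddit3 also followed the balance of long and short transcripts of the libraries. Whether the sequences bear on these correlations was not tested. The windows hold the 250 bases before a RefSeq start (GRCm38.p6), with the letters CCAAT on either strand in capitals. CCAAT is bound by the factor NF-Y and is also the first part of the ER stress element. Atf5 has a pair of listed starts, and the second window lies inside the gene, outside annotated exons. The last bases of the Ddit3 window fall in the first exon of the GENCODE gene model, and exons of the transcript Gm4189 overlap this window on the opposite strand.
Eif2ak3 (chr6:70844265-70844514, plus strand): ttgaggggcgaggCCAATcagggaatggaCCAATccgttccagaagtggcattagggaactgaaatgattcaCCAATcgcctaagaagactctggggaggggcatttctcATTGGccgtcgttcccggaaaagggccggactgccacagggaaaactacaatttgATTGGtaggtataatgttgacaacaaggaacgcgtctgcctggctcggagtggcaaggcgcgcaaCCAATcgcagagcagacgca
Ddit3 (chr10:127290543-127290792, plus strand): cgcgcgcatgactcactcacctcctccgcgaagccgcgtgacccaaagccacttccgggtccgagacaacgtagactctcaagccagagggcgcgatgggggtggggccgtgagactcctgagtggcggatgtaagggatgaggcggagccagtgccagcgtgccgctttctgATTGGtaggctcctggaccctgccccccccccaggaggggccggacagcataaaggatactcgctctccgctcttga
Atf5, first start (chr7:44816659-44816908, minus strand): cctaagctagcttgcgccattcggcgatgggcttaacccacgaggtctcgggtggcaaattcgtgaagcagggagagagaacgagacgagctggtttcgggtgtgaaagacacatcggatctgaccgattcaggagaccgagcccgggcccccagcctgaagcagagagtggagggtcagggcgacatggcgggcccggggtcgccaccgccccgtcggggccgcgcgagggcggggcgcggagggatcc
Atf5, second start (chr7:44815659-44815908, minus strand): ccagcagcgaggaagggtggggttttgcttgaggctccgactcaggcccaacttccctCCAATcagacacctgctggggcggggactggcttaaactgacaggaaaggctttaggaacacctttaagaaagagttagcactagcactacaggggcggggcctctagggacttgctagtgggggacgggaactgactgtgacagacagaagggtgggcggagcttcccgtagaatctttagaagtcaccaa

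The Eif2ak3 window held 6 CCAAT matches, a number reached by 0.0578% of the 32851 windows in the table. Ddit3 and the second Atf5 window held 1 match each, and the first Atf5 window held 0. At least 1 CCAAT match was present in 33.8% of all windows. The full ER stress element (CCAAT and CCACG with 9 bases between them) was present in 0.113% of windows, the cAMP response element TGACGTCA in 1.55%, and neither was found in the windows of the 7 members that had one. The composite element TGATGNAAN, read by ATF4 and CHOP dimers, was present in 3.44% of windows and among members only in that of Kdm1a, which also held 1 CCAAT. Lbr held 2 CCAAT matches, Rtp2 and Reep1 held 0, and Rtp1 had no window. The Rtp2 and Lbr windows lie inside the GENCODE gene models, and the Reep1 window runs past the start of its gene model. A match of letters is a description of the sequence and not a bound site.

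No member passed the test between any pair of genotypes. In edgeR quasi-likelihood fits of all 17197 genes tested, 0 of 8 members had an adjusted p under 0.05 in homo against WT, het against WT or homo against het mice, and over all genes these shares were 0.0698%, 0% and 0.0756%. At an unadjusted p under 0.05 the count was also 0 of 8 in each comparison, against 2.41%, 1.92% and 2.48% of all genes. DESeq2 called 0 members in each comparison as well, and edgeR called 0 with each of the 10 libraries left out in turn. The adjusted p was at least 0.999 in all 24 member tests. Standard errors were between 0.083 and 0.13 on the log2 scale, and the 95% confidence intervals of the 24 ratios lay between 75.7% and 125% (the plot of fitted ratios), so that these bounds enclose every member in every comparison. The intervals depend on how differences between libraries are modelled. A term each for the balance of long and short genes and of high and low GC content was added after seeing the data. Standard errors were then between 0.048 and 0.083, and the smallest adjusted p in edgeR was 0.561 (Reep1 in homo against het mice). These terms were made from deviations from the genotype means of the same libraries. They could therefore hardly move a fold change, and the smaller standard errors are not a separate check.

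**Figure D1:**
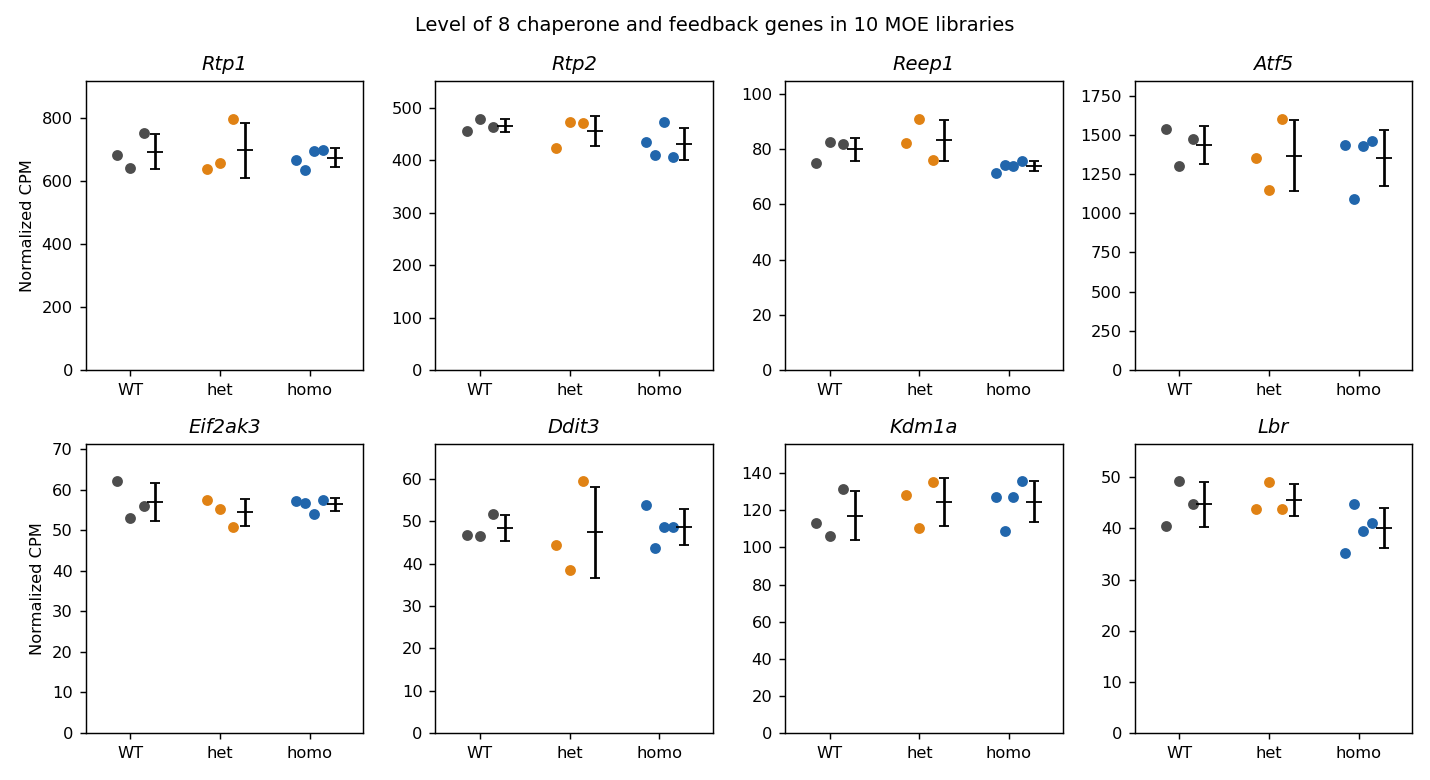
Normalized CPM (counts scaled to a common library size, y axis from 0) of the 8 genes in 3 WT, 3 het and 4 homo libraries (x axis), with 1 point per library and the mean and SD beside them. The points of the 3 genotypes overlap for each gene, except that the 4 Reep1 points of homo mice (71.6 to 75.8) all lie below the 3 het points (76.3 to 91.0).

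Among the receptor transport genes, Rtp1 was the more abundant of the pair that carries ORs to the membrane. Rtp1 (chr16:23429133-23433960, plus strand, 2 exons) had 684, 643 and 754 normalized CPM in WT, 640, 657 and 798 in het, and 668, 636, 697 and 699 in homo libraries. The highest and the next to lowest of these values both came from het libraries, and the homo values lay within the WT and het range apart from homo-2, the lowest of all. Its log2 fold change was -0.039 (SE 0.10) between homo and WT mice and 0.0098 (SE 0.11) between het and WT mice.

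Rtp2 (chr16:23925548-23932394, minus strand, 4 exons) had 455, 479 and 463 normalized CPM in WT, 423, 473 and 471 in het, and 435, 409, 473 and 406 in homo libraries. The WT libraries were the least variable (465 ± 12.1, SD, n = 3), and the het libraries (455 ± 28.3, SD, n = 3) and the homo libraries (431 ± 31.0, SD, n = 4) spread more widely. With 92.5% of WT in homo mice (95% confidence interval 81.1% to 106%), 3 of the 4 homo libraries lay below every WT library, and homo-3 lay inside the WT range. With the length and GC terms the log2 fold change of Rtp2 was -0.12 (SE 0.048, edgeR adjusted p = 0.572), in place of -0.11 (SE 0.090). Rtp1 and Rtp2 are related genes, and how reads with several alignments were counted is not given in the sources used here.

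Reep1 (chr6:71707561-71810710, plus strand, 9 exons), an ER-shaping membrane protein that also helps ORs to the surface, gave the only separation between groups. It had 75.2, 82.6 and 82.0 normalized CPM in WT, 82.2, 91.0 and 76.3 in het, and 71.6, 74.3, 73.9 and 75.8 in homo libraries. All 4 homo values lay below all 3 het values, while WT-1 lay among the homo values. Groups that do not overlap were seen for 1 of 8 members in homo against het mice, where 3.88% of all genes showed this and 1.64% did so with homo lower. They were seen for 0 of 8 members in homo against WT mice (3.57% of all genes) and 0 of 8 in het against WT mice (5.23% of all genes). Between homo and het mice the log2 fold change of Reep1 was -0.17 (SE 0.083, edgeR adjusted p = 0.999), or 88.9% of the het level (95% confidence interval 78.7% to 100.3%), and against WT it was -0.11 (SE 0.083).

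**Figure D2:**
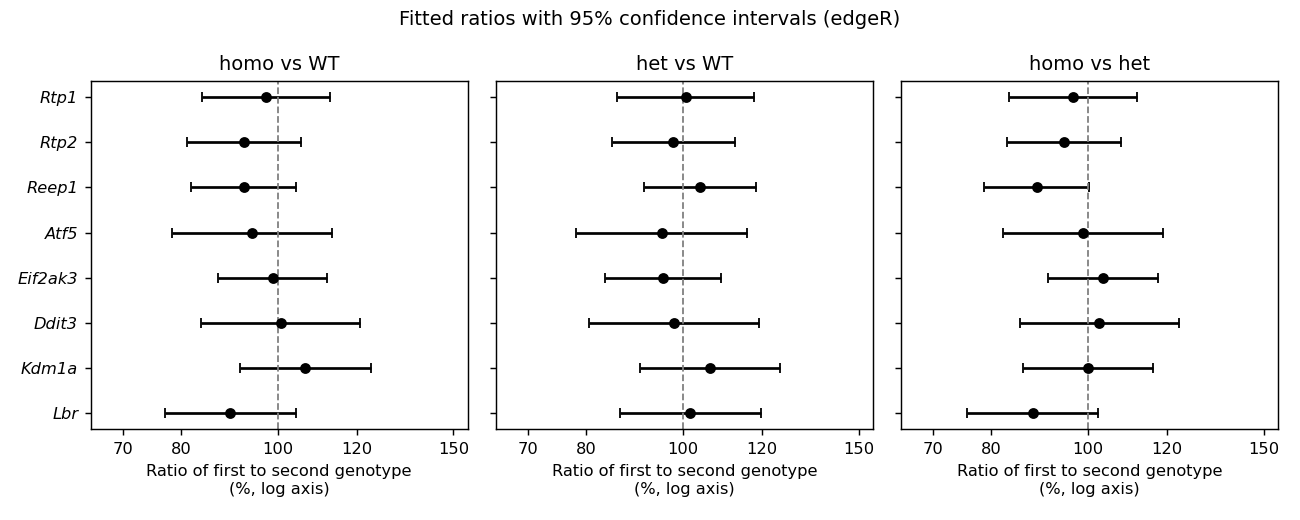
Fitted ratio of the first to the second genotype in percent (x axis, log scale) for the 8 genes (y axis) in the 3 comparisons, with 95% confidence intervals from edgeR. All 24 intervals include 100%, and the nearest to excluding it is Reep1 in homo against het mice, at 78.7% to 100.3%.

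Of the unfolded protein response genes, Atf5 was the most abundant and among the most variable. Atf5 (chr7:44812256-44816658, minus strand, 4 exons) had 1534, 1301 and 1471 normalized CPM in WT, 1349, 1150 and 1602 in het, and 1432, 1090, 1426 and 1462 in homo libraries. The libraries WT-2, het-2 and homo-2 were each the lowest of their genotype, and the genotypes overlapped across most of their range. Homo mice had 94.2% of the WT level (95% confidence interval 78.4% to 113%) and het mice 95.2% (78.2% to 116%). The log2 fold change between homo and WT mice was -0.086 with all libraries and -0.0010 without homo-2. With each of the 10 libraries left out in turn it ranged from -0.16 to -0.0010, so that it moved in both directions. The known control of Atf5 in this pathway acts on translation, which counts of RNA do not measure. Of the Atf5 exons, 82 bases (4.11%) overlap exons of Nup62 and Il4i1 on the opposite strand.

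Eif2ak3 (chr6:70844515-70905245, plus strand, 19 exons), the PERK kinase gene, was the member with the smallest spread. It had 62.1, 53.1 and 55.9 normalized CPM in WT, 57.5, 55.2 and 50.9 in het, and 57.2, 56.8, 54.1 and 57.6 in homo libraries. The homo libraries all fell inside the WT range. Of its exons, 485 bases (8.05%) overlap the transcript Gm43292 on the opposite strand. Its log2 fold change was -0.016 (SE 0.086) in homo and -0.066 (SE 0.092) in het mice against WT.

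Ddit3 (chr10:127290774-127296288, plus strand, 4 exons) encodes CHOP, a factor that is induced by lasting ER stress, and lies on the same chromosome as the Taar genes. It had 46.7, 46.5 and 51.8 normalized CPM in WT, 44.3, 38.5 and 59.4 in het, and 53.9, 43.6, 48.6 and 48.6 in homo libraries. The lowest and the highest of the 10 values were both in het mice (47.4 ± 10.8, SD, n = 3), and all WT and all homo values lay between them. Homo mice had 100.7% of the WT level (95% confidence interval 83.8% to 121%). Ddit3 exons share 68 bases (3.97%) with Mars on the opposite strand.

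The chromatin genes were Kdm1a and Lbr. Kdm1a (chr4:136550540-136602723, minus strand, 20 exons) had 113, 106 and 132 normalized CPM in WT, 128, 110 and 135 in het, and 127, 109, 127 and 136 in homo libraries. As for Atf5, the libraries numbered 2 were the lowest of each genotype, and the other values overlapped. Its log2 fold change against WT was 0.092 (SE 0.10) in homo and 0.091 (SE 0.11) in het mice, and homo mice had 100.1% of the het level.

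Lbr (chr1:181815335-181843046, minus strand, 17 exons) had 40.4, 49.2 and 44.7 normalized CPM in WT, 43.8, 49.2 and 43.8 in het, and 35.2, 44.7, 39.5 and 41.1 in homo libraries. Of the homo libraries, 3 lay below all het libraries, and homo-2 lay among them. Homo mice had 89.6% of WT (95% confidence interval 77.1% to 104%) and 88.0% of het (75.7% to 102%, edgeR adjusted p = 0.999). The summed level of 7 immune and marrow cell markers was 199 normalized CPM in WT-2 and at most 144 in the other 9 libraries. These cells express Lbr. In each genotype the library numbered 2 had the most Lbr and the highest marker sum (199, 137 and 144 in WT-2, het-2 and homo-2). It also had the highest level of long relative to short transcripts. The part of these measures in the Lbr values was not tested. Lbr exons share 440 bases (9.24%) with Dnah14 on the opposite strand, and the strand setting of the counting is not given in the sources used here.

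A test of any difference between the 3 genotypes gave 0 of 8 members with an adjusted p under 0.05 in edgeR, against 0.0698% of all genes, and 0 of 8 with an unadjusted p under 0.05, against 1.98%. Reep1 had the smallest p of the 8 and Ddit3 the largest.

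Compared per length, the members fell into 3 that were among the most abundant mRNAs of the tissue and 5 that were not. On a scale of normalized CPM per kilobase of annotated exon, averaged over 10 libraries, Atf5 had a level of 693 ± 81.5 (SD) and ranked 34 of 16547 genes. Rtp1 had a level of 220 ± 17.0 (SD, rank 116) and Rtp2 of 168 ± 10.5 (SD, rank 160), so that Atf5 was 3.15 times as high as Rtp1, and Rtp1 1.31 times as high as Rtp2. Each of these was above the next in all 10 libraries, with no overlap between libraries. After a 5.96-fold step came Ddit3 at 28.1 ± 3.41 (SD), Kdm1a at 23.6 ± 2.20 (SD) and Reep1 at 19.1 ± 1.43 (SD). The ranges of neighbours in this order overlapped, while within libraries Ddit3 was above Kdm1a in 10 of 10 and Kdm1a above Reep1 in 9 of 10. Eif2ak3 (9.30 ± 0.504, SD) and Lbr (9.06 ± 0.907, SD) were the lowest and were not separated, with Eif2ak3 higher in 6 of 10 libraries. With the shorter exon models of the basic annotation, the level per kilobase was 54.1 for Ddit3 and 39.9 for Kdm1a, so that the step from Rtp2 to Ddit3 was 3.41-fold, and Kdm1a was 2.09 times as high as Reep1 with no overlap. Lbr (12.3) and Eif2ak3 (11.6) changed places, and the order of the others was the same.

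No gene of the wider pathways passed the test either. Of the 86 genes on 5 lists, 85 were tested (Rtp3 had too few counts), and 0 had an adjusted p under 0.05 in any comparison in edgeR, nor in DESeq2. At an unadjusted p under 0.05 there were 0 of 85 in homo against WT, 1 of 85 in het against WT and 3 of 85 in homo against het mice, beside 2.41%, 1.92% and 2.48% of all genes, so that these counts were close to the background. The lists contain the members and were chosen with earlier results of these data known.

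Among the 9 tested receptor transport genes the median log2 fold change was -0.014 in homo and 0.011 in het mice against WT, beside 0.00012 and -0.00088 over all genes. The most abundant relatives of the members were Reep5, an ER membrane-curving protein, at 81.8 and Reep3, its paralogue, at 77.5 normalized CPM, and their log2 fold changes between homo and WT mice were -0.011 (SE 0.086) and 0.019 (SE 0.097). Reep2 had the smallest p of this list in het against WT mice (log2 fold change -0.31, SE 0.30) at a level of 1.56 normalized CPM.

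In the PERK arm (16 of 16 genes tested), the median log2 fold change was -0.0096 in homo and -0.023 in het mice against WT. Atf4, the factor made when eIF2α is phosphorylated, differed by -0.033 (SE 0.084) in homo against WT mice at 256 normalized CPM. Ppp1r15b and Ppp1r15a, which direct the phosphatase that reverses this phosphorylation, differed by -0.068 (SE 0.094) and -0.098 (SE 0.13). Chac1, a glutathione-degrading target of the pathway, had the smallest p of this list in both comparisons with het mice. It had 6.94, 6.22 and 6.83 normalized CPM in WT, 4.14, 4.26 and 5.23 in het, and 4.97, 10.4, 5.61 and 5.92 in homo libraries. All het values lay below all WT values (log2 fold change -0.55, SE 0.24, edgeR adjusted p = 0.999), where 5.23% of all genes had groups that did not overlap, and homo-2 was the highest of all 10. Asns, the asparagine synthetase gene and an ATF4 target, had 58.5, 49.5 and 47.8 in WT, 56.8, 51.7 and 44.8 in het, and 69.1, 73.8, 56.5 and 50.7 normalized CPM in homo libraries, with homo-2 again the highest. Asns differed by 0.27 (SE 0.13) between homo and WT mice and by 0.29 (SE 0.13) between homo and het mice.

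Of the 27 genes of the IRE1 and ATF6 arms and the ER chaperones, the median was 0.029 in homo and -0.047 in het mice against WT. The most abundant were chaperones and a disulfide isomerase of the ER, Hsp90b1 (961 normalized CPM), Hspa5 (624), Pdia3 (599) and Calr (560), and their log2 fold changes in homo against WT mice lay between -0.029 for Pdia3 and 0.043 for Calr. Hspa5, the BiP gene that is the usual readout of an ER load, differed by 0.029 (SE 0.10). Derl3, a small component of ER-associated degradation, had 10.9, 8.33 and 8.80 normalized CPM in WT, 9.25, 8.22 and 7.08 in het, and 12.8, 15.4, 8.28 and 11.9 in homo libraries, so that 3 of 4 homo libraries were above all others and homo-3 lay among the WT and het values. Between homo and het mice Derl3 differed by 0.56 (SE 0.19, edgeR adjusted p = 0.999), and against WT by 0.37 (SE 0.18). Pdia4 had the smallest p of the list in het against WT mice (log2 fold change -0.14, SE 0.092).

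The 13 genes of the LSD1 complex and its relatives had medians of 0.031 in homo and 0.057 in het mice against WT. The most abundant were the deacetylase Hdac2 (297 normalized CPM), the complex partners Zmym2 (144) and Gse1 (124), and Kdm1a itself (122). Between homo and WT mice Hdac2 differed by -0.057 (SE 0.10), Zmym2 by 0.031 (SE 0.11) and Gse1 by 0.016 (SE 0.12) on the log2 scale. Rcor3, a CoREST scaffold, had the smallest p in homo mice against WT (-0.12, SE 0.10) and against het mice (-0.18, SE 0.10). The 20 heterochromatin and nuclear envelope genes had medians of -0.028 in homo and -0.037 in het mice against WT. Tmpo, a lamina-associated protein gene and the most abundant of them (248 normalized CPM), differed by -0.081 (SE 0.083) in homo against WT mice. Setd8 and Suv420h1, which methylate histone H4, and Trim28, a corepressor of heterochromatin, differed by -0.049 (SE 0.090), 0.0066 (SE 0.091) and 0.027 (SE 0.11). Cbx5, which encodes the heterochromatin protein HP1α, had the smallest p in het against WT mice (0.13, SE 0.10). Lbr itself had the smallest p of this list in both comparisons with homo mice.

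**Figure D3:**
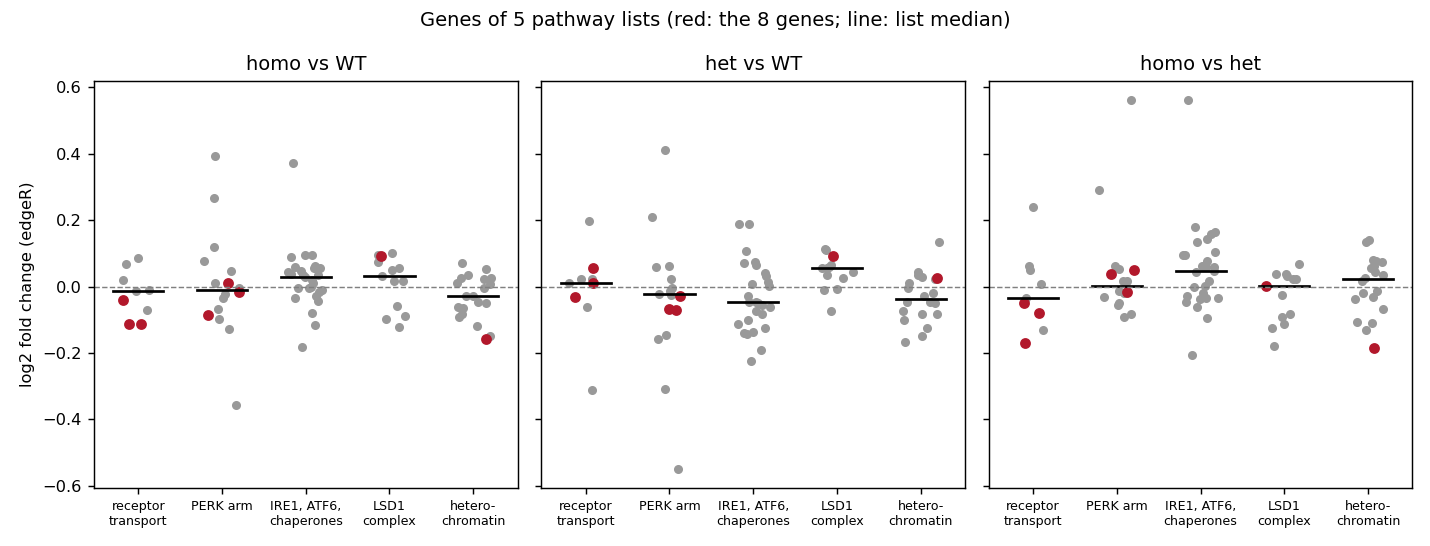
log2 fold change from edgeR (y axis) of the 85 tested genes of 5 pathway lists (x axis) in the 3 comparisons, with the 8 members in red and a line at each list's median. The medians lie between -0.047 and 0.057, and the 3 genes with an unadjusted p under 0.05 in homo against het mice (Derl3 at 0.56, Chac1 at 0.56 and Asns at 0.29) stand above the medians of their lists. These 3 are 3 of 85 genes, beside 2.48% of all genes.

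Within genotypes the members differed in how much they varied between libraries. The SD of log2 levels around the genotype means was 0.20 for both Atf5 and Ddit3, 0.15 for Kdm1a, 0.13 for Lbr and 0.12 for Rtp1, against 0.085 for Rtp2, 0.083 for Reep1 and 0.082 for Eif2ak3. Among the 200 genes nearest in level, 86.5% had a smaller SD than Ddit3, 69.5% a smaller one than Kdm1a and 46.0% a smaller one than Lbr. For Eif2ak3 (16%), Rtp2 (13.5%) and Reep1 (11.5%) the share was low, so that they were steadier than most genes of their level. Atf5 and Rtp1, which have fewer genes above them, had shares of 70.1% of 134 and 36.7% of 199 genes.

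Atf5, Ddit3, Kdm1a and Rtp1 had positive correlations with one another, and Lbr had negative ones with all 4. Correlations were taken over the 10 libraries on log2 levels less the genotype mean, for all 28 pairs of members, with permutation p-values adjusted over the 28. The permutations made no allowance for the removed genotype means, so these and all later permutation p-values tend to be too small. The 6 pairs among Atf5, Ddit3, Kdm1a and Rtp1 had r between 0.738 and 0.842. Atf5 and Kdm1a had Pearson's r = 0.842 (permutation p = 0.00302, adjusted 0.0423; Spearman's rho 0.648, permutation p = 0.0505), and r was 0.622 without het-2 and homo-2. Atf5 and Ddit3 had r = 0.818 (permutation p = 0.00302, adjusted 0.0423) with rho 0.818 (permutation p = 0.00572, adjusted 0.0801), and r was 0.703 without the same 2 libraries. For Rtp1 and Ddit3 r was 0.802 (permutation p = 0.00458, adjusted 0.0427) with rho 0.818 (permutation p = 0.00561, adjusted 0.0801), and it was 0.518 without WT-3 and het-3, so that this relation rested in part on them. The other 25 pairs had adjusted p-values over 0.05 for r, and no pair was under 0.05 for adjusted rho. Eif2ak3 did not follow Atf5 (r = -0.059, permutation p = 0.872), and Reep1 and Lbr had a positive r (0.697, permutation p = 0.0233, adjusted 0.0726). Lbr had r = -0.754 with Atf5 (permutation p = 0.0124, adjusted 0.0579; rho -0.624, permutation p = 0.0596), and -0.534 without het-2 and homo-2. With Ddit3, Kdm1a and Rtp1 its r was -0.552, -0.530 and -0.320. Of the 28 pairs, 11 had a positive r.

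**Figure D4:**
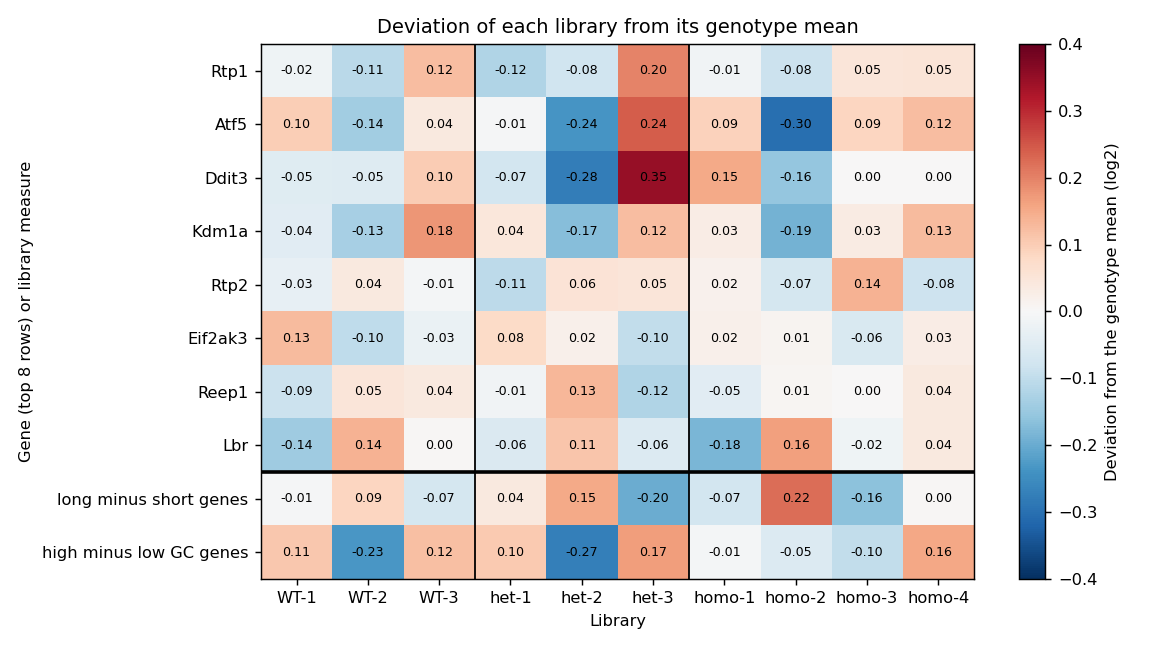
Deviation of each library (x axis, WT, het and homo separated by lines) from its genotype mean on the log2 scale (colour and printed value) for the 8 genes and, below the line, for 2 measures of the library as a whole. Atf5, Ddit3 and Kdm1a are blue in WT-2, het-2 and homo-2, where long minus short genes is red.

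The libraries themselves differed along the same line. The difference between the median log2 deviation of the 2853 longest of 11411 expressed genes (from 7159 bases of exon) and that of the 2853 shortest (up to 2996 bases) was highest in WT-2 (0.086), het-2 (0.15) and homo-2 (0.22), and lowest in het-3 (-0.20) and homo-3 (-0.16). Over the 10 libraries it had r = -0.909 with Atf5 (permutation p = 0.0003, adjusted over 20 relations 0.003; rho -0.794, permutation p = 0.00847), and r was -0.793 without het-3 and homo-2. With Ddit3 r was -0.835 (permutation p = 0.00261, adjusted 0.0174; rho -0.879, permutation p = 0.00164), with Rtp1 -0.795 (permutation p = 0.00556, adjusted 0.0222; rho -0.758, permutation p = 0.0149) and with Kdm1a -0.787 (permutation p = 0.0076, adjusted 0.0253; rho -0.636, permutation p = 0.0549). Without het-3 and homo-2 these 3 were -0.763, -0.704 and -0.658. By rank, the adjusted permutation p was over 0.05 for Kdm1a (0.0915) and under it for Atf5, Ddit3 and Rtp1. Ddit3, Atf5 and Rtp2 have the shortest exons of the members (1713, 1993 and 2674 bases), while Kdm1a, which moved with Atf5, has 5179. Rtp2 had r = -0.461 with the length difference (permutation p = 0.178, adjusted 0.209). Lbr had a positive r of 0.657 with it (permutation p = 0.0395, adjusted 0.0719; rho 0.673, permutation p = 0.0391), and 0.549 without het-3 and homo-2. For Reep1 and Eif2ak3 r was 0.582 and 0.336 (permutation p = 0.0749 and 0.343). The difference between genes of high and low GC content (over 54.4% and under 44.7%) had r = 0.778 with Kdm1a (permutation p = 0.0101, adjusted 0.0288; rho 0.770, permutation p = 0.0127), and r was 0.605 without WT-2 and het-2. With Atf5 r was 0.718 (permutation p = 0.0207, adjusted 0.0518) and rho 0.770 (permutation p = 0.0120, adjusted 0.0424), and r was 0.521 without the same 2 libraries. The other members had adjusted permutation p-values over 0.05 for both r and rho. These measures are shared by all genes of a library, and their part in the members' values was not tested.

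The same members also followed the markers of OSN stages, with the mature markers less clearly once the most abundant of them was left out. Kdm1a had r = 0.923 with the summed level of 12 immature OSN and progenitor markers (permutation p = 0.00026, adjusted over 16 relations 0.00416; rho 0.915, permutation p = 0.00058), and r was 0.903 without het-3 and WT-3. LSD1 is known from immature OSNs and their precursors. Rtp1 (r = 0.830, adjusted permutation p = 0.0196; rho 0.745, permutation p = 0.0171), Ddit3 (r = 0.800, adjusted permutation p = 0.0196; rho 0.842, permutation p = 0.00393) and Atf5 (r = 0.708, adjusted permutation p = 0.0460; rho 0.673, permutation p = 0.0386) went the same way, and without het-3 and WT-3 these were 0.577, 0.693 and 0.727. This marker sum itself had r = 0.818 with the GC difference of the libraries (permutation p = 0.00413, adjusted 0.0206; rho 0.855, permutation p = 0.00266), and 0.638 without WT-2 and het-2.

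With the mature OSN markers, r was 0.800 for Atf5 (adjusted permutation p = 0.0196; rho 0.758, permutation p = 0.0142), 0.736 for Ddit3 (adjusted permutation p = 0.0347; rho 0.758, permutation p = 0.0150) and 0.709 for Rtp1 (adjusted permutation p = 0.0460; rho 0.648, permutation p = 0.0492). It was negative for Lbr (-0.740, adjusted permutation p = 0.0460; rho -0.782, permutation p = 0.0111) and for Reep1 (-0.687, adjusted permutation p = 0.0475; rho -0.721, permutation p = 0.0236). Without homo-3 and het-3, r was 0.746 for Atf5, 0.703 for Ddit3, 0.522 for Rtp1, -0.905 for Lbr and -0.651 for Reep1. Of these 9 relations with marker sums, 3 had an adjusted permutation p over 0.05 by rank, namely Rtp1 (0.0875) and Reep1 (0.0539) with the mature and Atf5 (0.0772) with the immature markers. Omp, the olfactory marker protein gene, held 43.5% to 51.6% of this sum. With Omp left out 0 of 8 members had an adjusted p under 0.05. Lbr was then at r = -0.664 (permutation p = 0.0385, adjusted 0.308; rho -0.697, permutation p = 0.0321) and Atf5 at 0.418 (permutation p = 0.229). Reep1 was at -0.369 (permutation p = 0.298), Rtp1 at 0.261 (permutation p = 0.465) and Ddit3 at 0.101 (permutation p = 0.787). The relations with the mature sum thus depended in large part on Omp. The mature OSN sum had r = -0.923 with the difference between long and short genes (permutation p = 0.00012, adjusted 0.0024; rho -0.964, permutation p = 5.0e-05). Over these 10 libraries the mature OSN markers and the length balance therefore cannot be told apart. For the immature OSN and progenitor sum r with the length difference was -0.672 (permutation p = 0.0337, adjusted 0.0719; rho -0.697, permutation p = 0.0308).

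**Figure D5:**
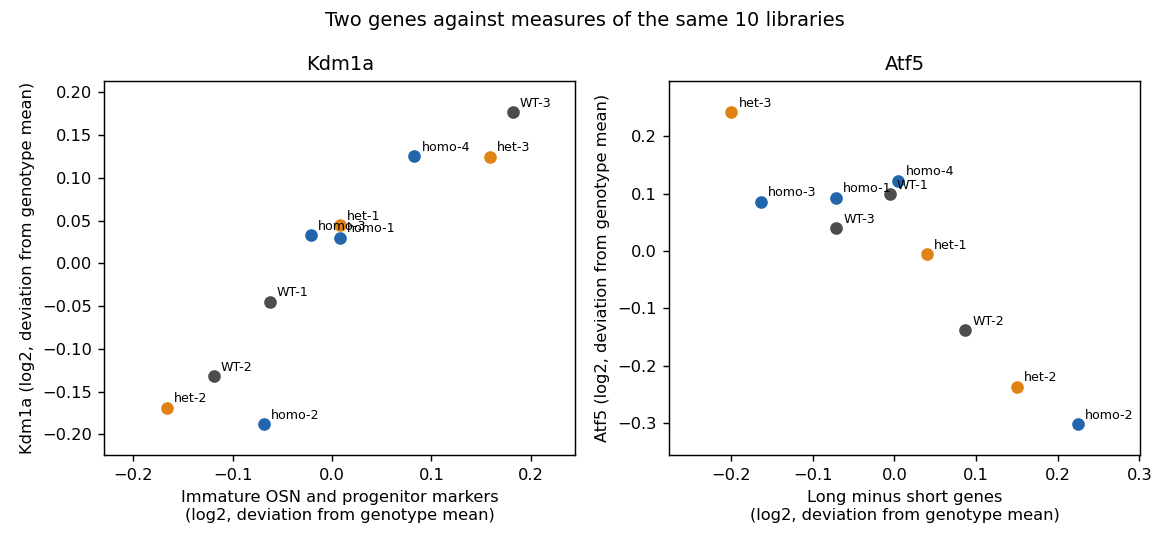
Each point is 1 of 10 libraries, coloured by genotype, as a log2 deviation from its genotype mean. Kdm1a (y axis) is plotted against the summed immature OSN and progenitor markers (r = 0.923) and Atf5 (y axis) against the difference between long and short genes (r = -0.909), with WT-2, het-2 and homo-2 at the low end of both genes.

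The genes whose pattern over the 10 libraries was most like that of each member were listed as a description, from 17197 genes and with no test. For Rtp1 they were Fahd1 (r = 0.989), Fkbp2 (0.984) and Rps16 (0.983), and for Rtp2 they were Ormdl2 (0.981), Mrpl50 (0.981) and the OR gene Olfr1130 (0.974). Reep1 was followed most closely by Rufy2 (0.978), Carf (0.974) and Fbxo18 (0.961). Atf5 had Myl12b (0.991), Tspan33 (0.989) and Impdh1 (0.984) nearest to it, Eif2ak3 had Fbxo10 (0.950), Tm9sf4 (0.948) and Nid1 (0.939), and Ddit3 had Loh12cr1 (0.985), Mtus2 (0.975) and Smap1 (0.973). The nearest genes to Kdm1a were Siah2 (0.984), Chgb (0.984) and Mad2l2 (0.983), and those to Lbr were Ints7 (0.964), Atad2b (0.960) and Cask (0.958). No member was among the 3 nearest genes of another member.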

How the data were processed

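RNA-seq of the whole MOE was analysed in 10 libraries, grouped by the genotype in their labels. Per the labels and methods, directional libraries were made after poly(A) selection, trimmed with Trimmomatic 0.36, aligned to mm10 with HISAT2 2.1.0 and counted per gene with featureCounts of Subread 1.6.2. The deposited raw counts were used here. A normalized table (signal, made by the authors by dividing counts by 1 DESeq2 1.20.0 size factor per library) served for 1 alternative only. The annotation, strand setting and handling of multiply aligned reads are not given in the sources used here.

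Counts were tested in R 4.3.3 with edgeR 4.0.16 (filterByExpr with a minimum count of 10 and a minimum total of 15, TMM, robust quasi-likelihood fit, two-sided tests, all 10 libraries, genotype only). Of 24421 rows, 17197 were tested, with Benjamini-Hochberg adjustment over all tested genes. Alternatives used DESeq2 1.42.0 and limma 3.58.1, and the tests were tested on simulated data. Exon lengths came from GENCODE M21, promoter windows from RefSeq. Correlations used 100000 permutations in Python 3.11.15 with scipy 1.17.1. Permutations treated the deviations from genotype means as 10 exchangeable values. They are not exchangeable, because the deviations are centred within each genotype and because WT and het libraries pair by number. The permutation p-values of all correlations therefore tend to be too small. How many would stay under 0.05 was not tested, and no blocked version was run.

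Named genes were the 8 members, the genes of each list with an adjusted p under 0.05 (there were 0), the smallest p in a comparison or one of the 4 highest levels, and the 3 genes most alike to each member. One gene that this rule would name is not reported here. Members and lists were chosen with earlier results of these data known. The relations and fit terms for gene length and GC content, the term for Y-linked counts and the marker sum without Omp were added after seeing the data.

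The study gives its replicates as littermates, and the labels do not say whether a replicate number marks a litter or an extraction. Libraries of a genotype differed by more than sampling noise in every pair (chi-square over its degrees of freedom was 14.2 to 48.4). Same-numbered WT and het libraries deviated together over all genes (correlations 0.326, 0.285 and 0.235), which met the limit of 0.1 set for pairing. Counts of Y-linked genes were present in WT-1 and het-1 and at most 2 in the WT and het libraries numbered 2 and 3. Sex and number 1 therefore cannot be told apart there, while numbers 2 and 3 were alike in these counts. Same-numbered homo and WT libraries did not pair (-0.0995 to -0.012). Of the same-numbered homo and het libraries, only those numbered 2 were over the limit (0.159), beside -0.148 and 0.068 for numbers 1 and 3.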

Additional observations from a re-analysis of the deposited data

Results flagged for a closer look

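Among 20 values checked in the homo group (levels of members and library measures), 2 had 1 library far from the other 3. Chance flags about 1 in 20 such groups, and the groups of 3 WT and 3 het libraries were not checked in this way. Atf5 had 1090 normalized CPM in homo-2 against 1432, 1426 and 1462 in the other homo libraries, a gap of 0.902 of the range. The log2 fold change of Atf5 in homo against WT mice was -0.086 with homo-2 and -0.0010 without it. The summed counts of the Olfr genes were 4553 CPM in homo-3 against 4117, 4059 and 4078 in the others, a gap of 0.883 of the range. In homo-3, Rtp2 (473 normalized CPM) was also the highest of the homo libraries.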

How the results depend on the processing

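Member counts and list counts past the adjusted threshold were 0 in all 504 recomputed values, under 12 settings with all libraries of the comparison (other scalings, filters and tools, a replicate block, the 2 genotypes alone, a mature OSN marker term, length and GC terms, and a term for Y-linked counts) and 10 settings with 1 library left out. No other library shares the number of homo-4, so in the replicate block homo-4 had a term of its own and did not bear on the genotype differences. For WT and het, whose numbers pair, the block was also fitted to those 6 libraries alone, and it changed no member's call. Of 512 recomputed fold changes, 472 kept their direction, 0 had an adjusted p under 0.05 (smallest 0.561), and 13 had an unadjusted p under 0.05, mostly Reep1 and Lbr in homo against het mice.

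The 40 that turned direction were all small, at most 0.11 on the log2 scale. With the mature OSN term, the log2 fold change of Rtp1 (0.037) and Atf5 (0.043) in homo against WT, Ddit3 (0.018) and Lbr (-0.011) in het against WT and Atf5 (0.049) in homo against het mice turned. For Kdm1a in homo against het mice it was -0.0014 with RLE scaling, -0.0035 with library totals, -0.0014 with DESeq2, -0.0011 with limma, -0.0039 with a mean CPM of at least 1 and -0.040 with the replicate block. The causes were not tested.

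With each library left out in turn, homo against WT ranged from -0.097 to 0.024 for Rtp1, -0.16 to -0.0010 for Atf5, -0.070 to 0.044 for Eif2ak3 and -0.048 to 0.061 for Ddit3. Het against WT ranged from -0.095 to 0.071 for Rtp1, -0.062 to 0.021 for Rtp2, -0.014 to 0.12 for Reep1, -0.20 to 0.038 for Atf5, -0.22 to 0.10 for Ddit3 and -0.044 to 0.099 for Lbr. Homo against het ranged from -0.12 to 0.057 for Rtp1, -0.12 to 0.11 for Atf5, -0.088 to 0.23 for Ddit3 and -0.075 to 0.065 for Kdm1a. The correlation of Eif2ak3 with mature OSN markers became 0.407 without 2 libraries and 0.368 without Omp, and with immature OSN and progenitor markers 0.249 without 2 libraries.

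Over all genes the block moved the calls from 12 to 19 in homo against WT and from 13 to 24 in homo against het mice. In these comparisons only homo-2 and het-2 were over the limit set for pairing, and homo-4 did not bear on the blocked genotype differences. It gave 3 in the 6 WT and het libraries alone, where 0 were called without it. The biological coefficient of variation was 13.9%, and standard errors of the members were 0.083 to 0.13. With length and GC terms, which were made from deviations within genotypes of the same libraries, they were 0.048 to 0.083.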
